A study of Mus musculus with 2 samples.

Results

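Mir223, Mir155, Mir150 and Mir342 are microRNA genes known from white blood cells, and their levels were read in the fetal mouse kidney. The 4 genes were chosen by symbol from the 1973 microRNA gene rows of the tables, and all 4 had a row, more than 10 reads and a level above 1 CPM in both libraries. CPM, the unit of every level here, is the reads on the strand of a gene per 1000000 such reads in all gene rows. MicroRNA sequencing, which the labels limit to fragments under 30 nucleotides, was run on whole kidneys of B6NCrl mouse embryos at 16.5 days, with male and female embryos pooled. The series holds 1 group of healthy embryos with 2 libraries, biological replicates 1 and 2; the labels give 41 embryos for replicate 2 and no number for replicate 1. Both libraries carry the same donor record, so the spread between them may be partly technical. With 1 group there is no contrast between conditions, and every test below compares 2 libraries.

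MicroRNAs are cut from hairpin transcripts into short strands that guide repression of messenger RNAs, mostly through pairing of the seed, bases 2 to 8 of the mature strand. miR-223 is the classic microRNA of the myeloid lineage, of neutrophils and monocytes above all. miR-155 comes from the Mir155hg transcript and is induced when lymphocytes and macrophages are activated, but it is not confined to them. miR-150 accumulates in mature lymphocytes, where it represses Myb. miR-342 lies in Evl, a gene of actin filament assembly that is active in lymphoid cells and in other cells too. The developing kidney holds macrophages well before birth, whereas mature lymphocytes appear late in gestation. In whole tissue, fewer cells of a type and less RNA per cell cannot be told apart.

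The sequences below, from RefSeq on GRCm38.p6, show what distinguishes the members, with the seed in capitals. Mature sequences were matched for 4 of 4 genes, 7 in all. For miR-150 the RefSeq entries used held only the 3p strand, so the seed of miR-150-5p is not shown.
miR-223-3p: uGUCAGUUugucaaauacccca
miR-223-5p: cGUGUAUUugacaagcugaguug
miR-155-5p: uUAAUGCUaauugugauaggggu
miR-155-3p: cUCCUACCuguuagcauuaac
miR-150-3p: cUGGUACAggccugggggauag
miR-342-3p: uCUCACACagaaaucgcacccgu
miR-342-5p: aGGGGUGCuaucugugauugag

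These 7 strands, which do not include miR-150-5p, have 7 different seeds, and none of these seeds occurs in a mature strand of another gene among the 1738 mature entries of the table. GC content ran from 34.8% in miR-155-5p to 63.6% in miR-150-3p. The deposited counts are per hairpin, so reads of the 5p and the 3p strand of a gene stand in 1 number. For Mir223 that number covers the hairpin below, in which capitals mark the mature strands.
Mir223 hairpin: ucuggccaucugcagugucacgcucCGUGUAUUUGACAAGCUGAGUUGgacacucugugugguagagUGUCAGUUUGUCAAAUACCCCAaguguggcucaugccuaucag

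None of the members overlapped another microRNA gene. On mm10, Mir223 (ENSMUSG00000076066) lies on chromosome X from 96242817 to 96242926, in an exon of the noncoding gene F630028O10Rik and 4277 bp from the macrophage gene Vsig4. Mir155 (ENSMUSG00000065397) lies on chromosome 16 from 84714140 to 84714204, in an exon of Mir155hg. Mir150 (ENSMUSG00000065495) lies on chromosome 7 from 45121757 to 45121821, between genes. Mir342 (ENSMUSG00000065436) lies on chromosome 12 from 108658620 to 108658718, in an intron of Evl. All 4 are on the plus strand. The nearest other microRNA gene was 5097 bp away for Mir150 (Mir5121) and 63130 bp away for Mir342, and farther for Mir223 and Mir155. None of the 4 precursors shares a stretch of 18 nt with another annotated microRNA gene. None had a read on the opposite strand.

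Reads in gene rows numbered 7128703 in replicate 2 and 5317669 in replicate 1. A count of 0 allows up to 3 reads, or 0.421 CPM in replicate 2 and 0.564 CPM in replicate 1, and the members stood well above that. Intervals given with reads or CPM are exact 95% Clopper-Pearson or conditional binomial intervals and cover counting error only. Of the other lists of cell-type genes, the rows of neuronal genes were at or near 0. In each library 4 of 5 stood at 0 or 1 read, and Mir9-3 was at 1.68 and 3.20 CPM in replicates 2 and 1. All 5 share sequence with another microRNA gene, so these rows may understate the mature strands and cannot show that neuronal microRNAs were absent. The epithelial miR-200 genes of tubules and ducts summed to 26770 and 26285 CPM, and endothelial Mir126a stood at 51554 and 52632 CPM.

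Mir342 was the most abundant member. It had 23185 reads in replicate 2 and 12508 in replicate 1, or 3252 CPM (95% interval 3211 to 3294) and 2352 CPM (2311 to 2394). Its mean of 2802 ± 637 CPM (SD, n = 2) placed it at rank 50 of all gene rows. Mir342 alone made up 83.0% of the summed level of the members in replicate 2 and 80.6% in replicate 1.

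Mir223, the myeloid member, had 2837 and 1792 reads in replicates 2 and 1. These were 398 CPM (383 to 413) and 337 CPM (322 to 353), with a mean of 367 ± 43.1 CPM (SD, n = 2) and rank 111. Mir155, the activation member, had 1719 and 1142 reads, or 241 CPM (230 to 253) and 215 CPM (202 to 228). Its mean was 228 ± 18.7 CPM (SD, n = 2), at rank 132.

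Mir150, the member of mature lymphocytes, was the lowest. It had 177 reads in replicate 2 and 74 in replicate 1, which gave 24.8 CPM (21.3 to 28.8) and 13.9 CPM (10.9 to 17.5). Its mean was 19.4 ± 7.72 CPM (SD, n = 2), at rank 245, so it was detected in both pools at a low level. Its CPM intervals did not overlap between the libraries, and neither did those of Mir342, Mir223 or Mir155. CPM is scaled by library totals. On that scale 193 of 455 tested genes differed between the libraries in the exact binomial test described below, 152 of them higher in replicate 2. With the TMM scaling used below, Mir223 and Mir155 did not pass that test. The share of all genes without overlap was not worked out. The SD of Mir150 was the largest of the members in relative terms, at 39.8% of the mean. It was 22.7% for Mir342, 11.7% for Mir223 and 8.18% for Mir155.

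**Figure D1:**
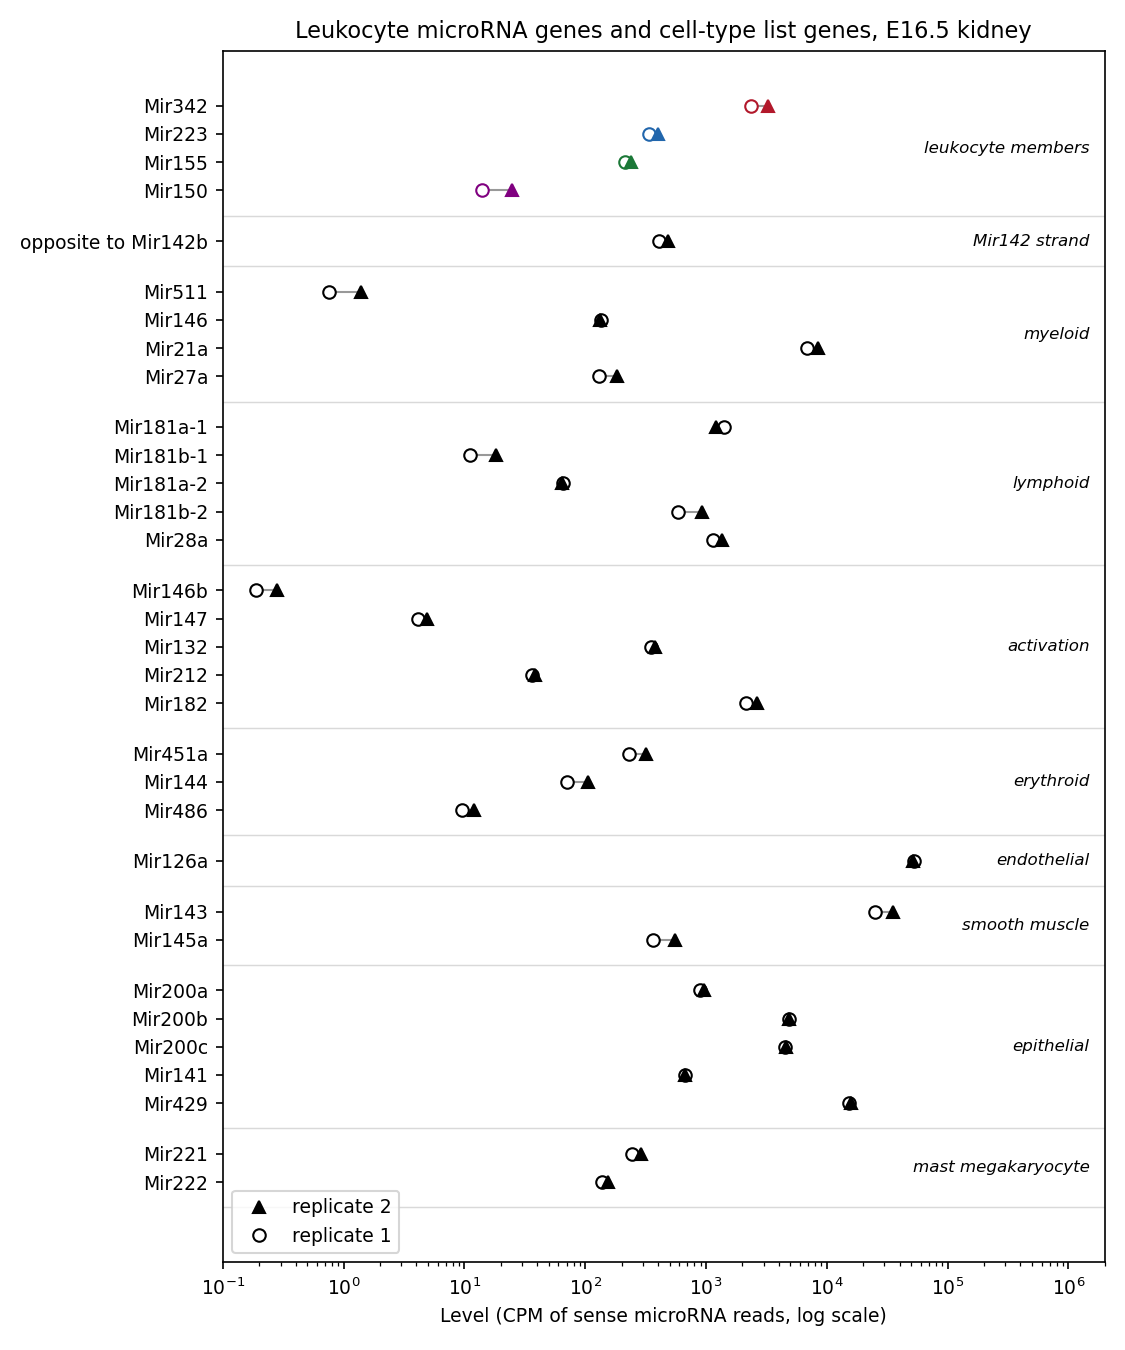
Level in CPM (x axis, log scale) of each member, of the reads opposite to Mir142b and of the genes of 8 cell-type lists (y axis), with replicate 2 as triangles and replicate 1 as open circles. A gene on several lists is drawn once, and neuronal genes are not drawn. Mir342 stands at 3252 and 2352 CPM and Mir150 at 24.8 and 13.9 CPM in replicates 2 and 1.

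The order Mir342, Mir223, Mir155, Mir150 was the same in both libraries. The pooled replicate SD of log2(CPM + 1) was 0.22 over the 181 genes that averaged 100 CPM or more, so that means of 2 libraries that differ by more than 1.34-fold lie beyond the 95% normal range of this spread. Mir342 stood 7.53-fold above Mir223 on this scale, with 8.15-fold in replicate 2 and 6.96-fold in replicate 1. Mir223 stood 1.61-fold above Mir155, with 1.65-fold and 1.57-fold. Mir155 stood 11.6-fold above Mir150, with 9.37-fold and 14.5-fold. All 3 steps exceeded 1.34-fold, though that bound comes from genes more abundant than Mir150. It covers the spread of the same gene between libraries only. Differences between genes in how readily their microRNAs are sequenced were not measured, so the steps are in reads. The difference within a library averaged 2.91 ± 0.16 in log2(CPM + 1) for Mir342 over Mir223, 0.68 ± 0.05 for Mir223 over Mir155 and 3.54 ± 0.44 for Mir155 over Mir150 (SD, n = 2 each). An exact sign-flip test on 2 libraries cannot go below p = 0.5.

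**Figure D2:**
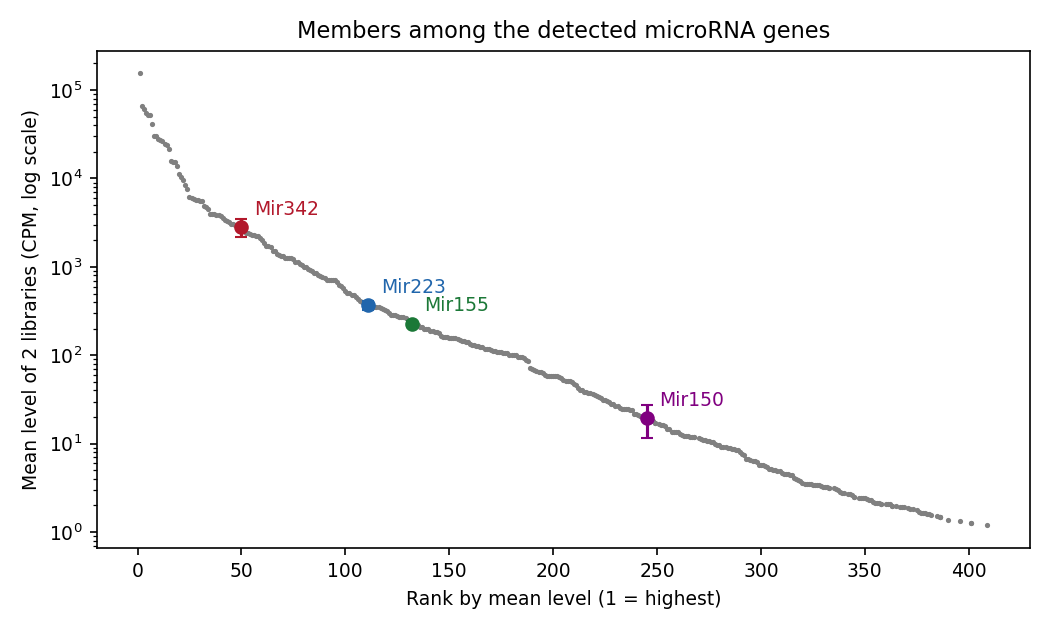
Mean level of 2 libraries in CPM (y axis, log scale) against rank (x axis) for the 387 genes at 1 CPM or more in both libraries, shown as grey points. Colored points are the members with their SD; they run from rank 50 for Mir342 to rank 245 for Mir150.

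Other genes of nearly the same level were found for each member by the larger of the 2 libraries' differences in log2(CPM + 1). Closest to Mir223 were Mir132, known from neurons and immune activation, at 380 and 349 CPM in replicates 2 and 1 (largest difference 0.07), Mir669o (0.11) and Mir671 (0.11). Closest to Mir155 were Mirlet7a-1 (0.07), Mir20b (0.09) and Mir204 (0.10). Mirlet7a-1 and Mir669o share sequence with another microRNA gene, so their rows may understate the mature strands. Closest to Mir342 were Mir125a (0.12), Mir181d (0.25) and Mir15a (0.28). Around Mir150 the differences were 0.24 for Mir18b, 0.27 for the striated muscle gene Mir208b and 0.28 for Mir326. Likeness of level over 2 libraries of 1 tissue is a description only.

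Mir142, a microRNA gene active across blood cells, has no row of its own in the tables used here. The tables hold Mir142b, a gene annotated on the minus strand across the Mir142 hairpin on chromosome 11 from 87756841 to 87756955. The mature strands show how both genes relate, again with the seed in capitals.
miR-142a-5p: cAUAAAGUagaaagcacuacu
miR-142a-3p: uGUAGUGUuuccuacuuuaugga
miR-142b: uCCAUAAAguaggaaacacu

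All 20 nt of miR-142b lie within the reverse complement of miR-142a-3p, so that only the strand of a read tells them apart. The Mir142b row held 0 reads on its own strand in both libraries. On the opposite strand, which is that of Mir142, it held 3442 reads in replicate 2 and 2176 in replicate 1. Per 1000000 sense reads of all gene rows these equal 483 (467 to 499) and 409 (392 to 427). This column was not part of the levels above, and its reads were used only as a second scale for the members.

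Read against the Mir142 strand, Mir223 was level in both pools. It gave 0.824 reads per Mir142-strand read in replicate 2 (95% interval 0.784 to 0.866) and 0.824 in replicate 1 (0.773 to 0.877). Mir155 gave 0.499 (0.471 to 0.529) and 0.525 (0.488 to 0.564), with intervals that overlap. Mir342 gave 6.74 (6.50 to 6.98) and 5.75 (5.49 to 6.02), higher in replicate 2 without overlap. Mir150 gave 0.0514 (0.0440 to 0.0598) and 0.0340 (0.0266 to 0.0429), also without overlap. These ratios within a library do not depend on its total.

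**Figure D3:**
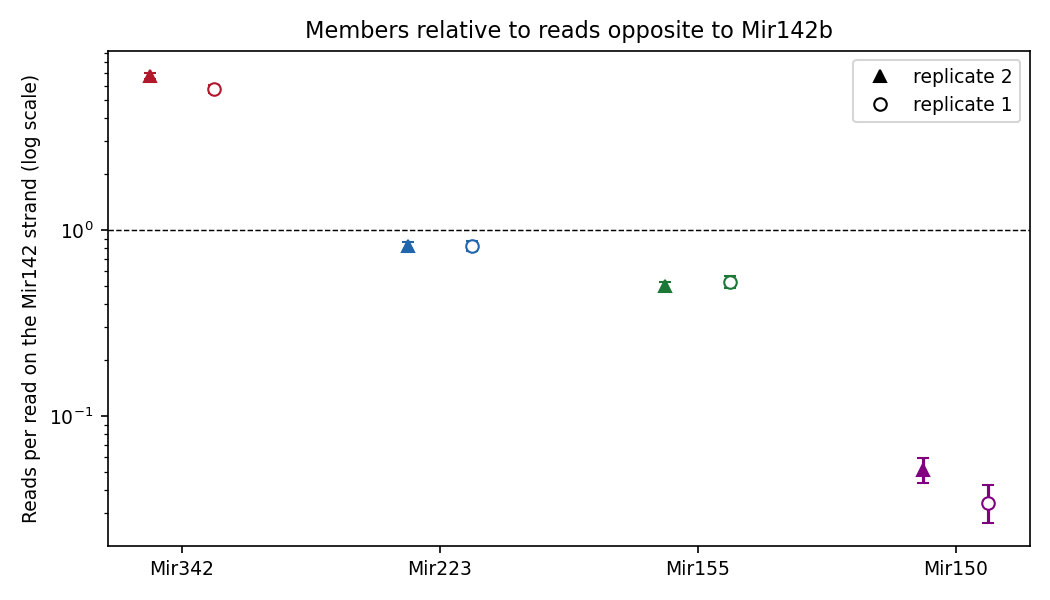
Reads of each member per read on the Mir142 strand (y axis, log scale), with replicate 2 as triangles on the left and replicate 1 as open circles on the right; bars are 95% counting intervals and the dashed line marks equal reads. Mir223 lies at 0.824 in both, and Mir342 and Mir150 lie higher in replicate 2.

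The members also differed between the pools in how they stood to each other. Mir223 had 16.0 reads per Mir150 read in replicate 2 (13.8 to 18.8) and 24.2 in replicate 1 (19.2 to 31.0). Mir155 had 9.71 reads per Mir150 read in replicate 2 (8.32 to 11.4) and 15.4 in replicate 1 (12.2 to 19.8). Neither pair of intervals overlapped, so Mir223 and Mir155 were both lower relative to Mir150 in replicate 2 beyond counting error. Spread between pools is not part of these intervals. Mir342 had 131 reads per Mir150 read in replicate 2 (113 to 153) and 169 in replicate 1 (135 to 215), with overlapping intervals. Per Mir223 read, Mir342 had 8.17 (7.86 to 8.50) and 6.98 (6.64 to 7.34), without overlap. The share of all gene pairs without overlap was not worked out. The ratio of Mir223 to Mir155, at 1.65 (1.55 to 1.75) and 1.57 (1.46 to 1.69), had overlapping intervals.

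The libraries were compared gene by gene with a two-sided exact binomial test on reads, with TMM scaling and Benjamini-Hochberg adjustment over the 455 genes with at least 10 reads. TMM scaling lowered every log2 ratio of replicate 2 to replicate 1 by 0.14 relative to library totals. Mir342 was higher in replicate 2, with a log2 ratio of 0.32 (0.29 to 0.36; adjusted p = 7.65e-92 in the exact binomial test). Mir150 was higher too, with a log2 ratio of 0.69 (0.29 to 1.10; adjusted p = 0.00165 in the exact binomial test). Mir223 stood at 0.10 (0.01 to 0.18; adjusted p = 0.0712) and Mir155 at 0.02 (-0.08 to 0.13; adjusted p = 0.799), and neither passed this exact binomial test. Thus 2 of 4 members passed an adjusted p of 0.05, both higher in replicate 2, beside 33.6% of all tested genes in either direction and 15.8% that were higher.

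These p-values count reads only and compare 2 pools. With a biological coefficient of variation (BCV) of 0.2 between pools in edgeR's exact test, 3 of 455 genes passed and none of the members did (adjusted p = 1.0 for each). With library totals in place of TMM, Mir223 (log2 ratio 0.24, adjusted p = 1.62e-07) and Mir155 (0.17, adjusted p = 0.00698) passed the exact binomial test too. With TMM factors from all gene rows, the setting computed first, Mir223 passed as well (log2 ratio 0.10, adjusted p = 0.0483 in the exact binomial test). Over all alternatives the adjusted p ran from 1.62e-07 to 1.0 for Mir223 and from 0.00698 to 1.0 for Mir155. Mir150 alone among the members differed by 1.5-fold or more, as did 22.4% of tested genes. That share was 5.21% of the 96 genes from 10 to 100 CPM, a range taken after the values were seen.

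**Figure D4:**
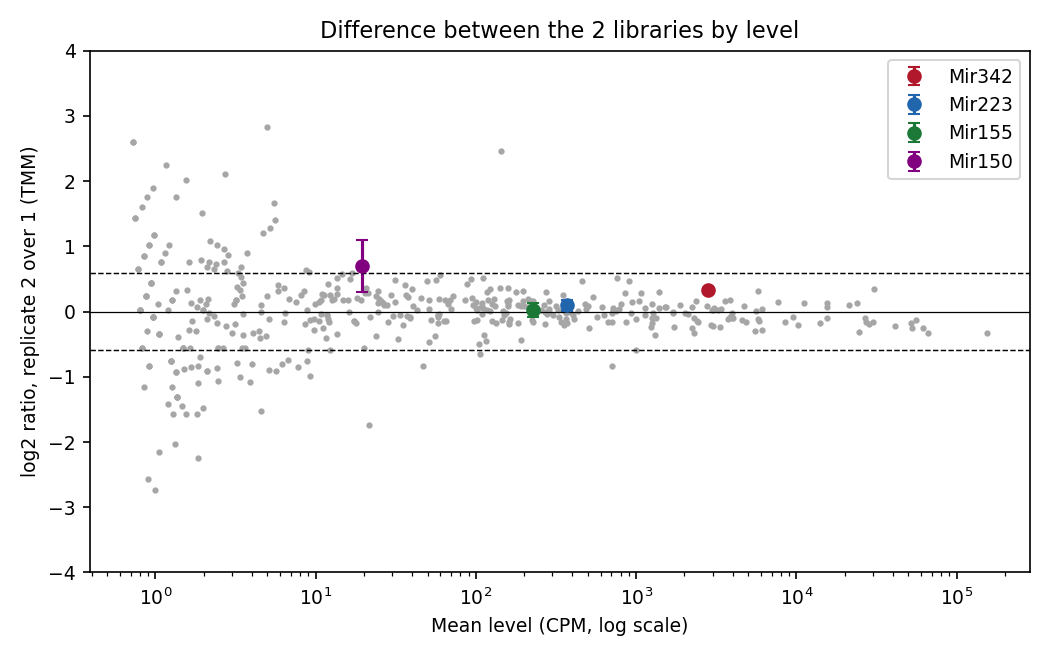
TMM-scaled log2 ratio of replicate 2 over replicate 1 (y axis) against mean level in CPM (x axis, log scale) for the 455 tested genes in grey and the members in color, with 95% counting intervals. Dashed lines mark 1.5-fold; Mir150, at 0.69, is the member beyond them.

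Of all 455 tested genes, 15.8% were higher in replicate 2 by the exact binomial test and 17.8% lower, and the counts of the following lists stand beside those shares. With a BCV of 0.2 in edgeR's exact test, 0 genes of these lists passed. The myeloid list had 6 genes, of which 5 had a row and 4 were at 1 CPM or more in both libraries. Of the 5, Mir21a and Mir27a were higher in replicate 2, 2 in all, and 1 was lower, with a median log2 ratio of 0.15, beside a median of 0.02 over all tested genes. The lower gene was Mir146, the gene of miR-146a, which restrains Toll-like receptor signaling. It had 937 reads in replicate 2 and 716 in replicate 1, or 131 and 135 CPM, with a log2 ratio of -0.18 after TMM scaling (adjusted p = 0.0436 in the exact binomial test). With library totals the log2 ratio was -0.03 (adjusted p = 0.781 in the exact binomial test), and over all alternatives the adjusted p ran from 0.0285 to 1.0. Mir146 shares sequence with another microRNA gene. Besides Mir223 it holds Mir511, of the macrophage gene Mrc1, which had 10 and 4 reads in replicates 2 and 1, or 1.40 and 0.752 CPM. Mir21a, broadly expressed in stroma as well as macrophages, stood at 8427 and 6900.2 CPM, and Mir27a, which shares sequence with another microRNA gene, at 185 and 131 CPM. The list sum of 9143 and 7503 CPM was thus mostly Mir21a. Mir142 of this list has no row and was not analysed here.

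The lymphoid list had 8 genes, 7 of them with a row and all 7 at 1 CPM or more in both libraries. By the exact binomial test 5 were higher in replicate 2 and 1 lower, with a median log2 ratio of 0.32. The higher genes include the members Mir342 and Mir150, and the median is the ratio of Mir342 itself, so these values partly restate the members. Of the 7, 5 share sequence with another microRNA gene. Mir181a-1, which tunes T cell receptor signaling in thymocytes but is widely expressed, was the lower gene, at 1213 and 1416 CPM in replicates 2 and 1 (log2 ratio -0.37). Mir181b-2 (0.51), Mir181b-1 (0.57) and Mir28a (0.12), known from germinal-center B cells, were higher. Mir181a-2 stood at 64.5 and 64.9 CPM and did not pass. The 2 members of the list that share no sequence are Mir342 and Mir150, the highest and nearly the lowest of the 7.

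The activation list had 8 genes, all with a row and 7 with a test. By the exact binomial test 2 were higher in replicate 2 and 1, Mir146, was lower, with a median log2 ratio of 0.02. With library totals in place of TMM, 4 were higher and 0 lower. The higher genes with TMM were Mir21a and Mir182, which is induced in activated T cells and is also an epithelial and sensory gene, at 2628 and 2126 CPM. Mir155 did not pass, nor did Mir132, at 380 and 349 CPM, or Mir212, its cluster partner, at 38.0 and 36.1 CPM. Mir147, induced in macrophages by Toll-like receptor signals, had 35 and 22 reads, or 4.91 and 4.14 CPM. Mir146b, induced with inflammation, had 2 reads in replicate 2 and 1 in replicate 1, both under the limit that a count of 0 allows, and it shares sequence with another gene.

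Markers of other cells differed between the libraries in both directions. Of the 3 erythroid genes, 2 were higher in replicate 2 by the exact binomial test, Mir451a at 316 and 232 CPM (log2 ratio 0.30) and Mir144 at 105 and 70.9 CPM (0.43), and the list summed to 434 CPM in replicate 2 and 313 CPM in replicate 1. Mir486, which shares sequence with another microRNA gene, stood at 11.9 and 9.59 CPM and did not pass. Relative to Mir451a, which red cell precursors hold, Mir342 gave 10.3 reads per read in replicate 2 (9.84 to 10.7) and 10.1 in replicate 1 (9.56 to 10.8), with overlapping intervals. Mir150 gave 0.0785 (0.0669 to 0.0915) and 0.0600 (0.0468 to 0.0759), also overlapping. Mir223 gave 1.26 (1.19 to 1.33) and 1.45 (1.35 to 1.56), and Mir155 gave 0.762 (0.715 to 0.812) and 0.925 (0.853 to 1.00), both lower in replicate 2 without overlap. Relative to endothelial Mir126a, each member was higher in replicate 2, and no pair of intervals overlapped. The share of all genes without overlap relative to Mir126a was not worked out. Mir126a had a log2 ratio of -0.17 beside a median of 0.02 over all tested genes, so a gene at that median also rose relative to Mir126a. The ratio to Mir126a rose 1.41-fold for Mir342, 1.82-fold for Mir150, 1.21-fold for Mir223 and 1.15-fold for Mir155. The direction for Mir223 and Mir155 thus depended on the gene used as scale. With TMM scaling the smooth muscle genes Mir143 (log2 ratio 0.35) and Mir145a (0.47) were higher in replicate 2, and endothelial Mir126a was lower (-0.17). With library totals the log2 ratio of Mir126a was only -0.03. Of the 5 epithelial genes 4 were lower with TMM scaling and 0 with library totals, where 2 were higher, Mir200a (log2 ratio 0.12) and Mir429 (0.04). Mir221 and Mir222, of mast cells, megakaryocytes and vessels, did not pass with TMM (Mir221 was higher in replicate 2 with library totals), at 289 and 244 CPM and at 154 and 139 CPM. The part of erythroid or smooth muscle content in the higher Mir342 and Mir150 was not tested.

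Summed, the 4 members held 0.392% of the microRNA reads in replicate 2 and 0.292% in replicate 1, a mean of 0.342% ± 0.0706 (SD, n = 2). Their sum of 3916 and 2918 CPM was 9.03 and 9.34 times that of the erythroid list in replicates 2 and 1. Mir342, whose host gene Evl is active in other cells too, made up 83.0% and 80.6% of that sum. Per read of erythroid Mir451a, Mir223 gave 1.26 and 1.45 reads, Mir155 0.762 and 0.925 and Mir150 0.0785 and 0.0600. The multiple of the sum thus rests mostly on Mir342 and does not measure leukocyte content.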

How the data were processed

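The authors deposited raw counts of reads per microRNA gene, on mm10 with genome annotation M4 per the accompanying file headers. For the aligner and counter: not given in the sources used here. Per table, counts exist for either strand, the strand of the gene (used here) and the opposite strand. The 4 rows without a gene name took 51.5% of all reads in replicate 2 and 55.2% in replicate 1 and stayed out of all totals; reads mapping to several places, 25.3% and 28.0%, are in no gene. Symbols, positions and the 18-nt comparison of precursors came from GENCODE M21, which matched 1894 of 1973 rows; the other 79 held 3 reads. Listed names without a row were looked up by RefSeq synonym, by which Mir146a is the row of Mir146.

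TMM factors (1.05 for replicate 2, 0.952 for replicate 1) were computed in edgeR 4.0.16 on genes with at least 10 reads. This setting replaced factors from all gene rows after the values were seen, to match the earlier processing of these data. One library a side leaves edgeR's quasi-likelihood test no residual degrees of freedom, so reads were compared with the exact conditional binomial test (scipy 1.17.1), checked on simulated data. Alternatives were DESeq2 1.42.0 size factors, library totals, other filters, strands and pseudocounts, and edgeR's exact test with a fixed BCV. The members, lists and tests were chosen with earlier results of these data known. The genes named are the members, every listed gene with a row, and the 3 genes nearest in level to each member. The Mir142b scale, the ratios between genes and the range from 10 to 100 CPM were added after the values were seen.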

Additional observations from a re-analysis of the deposited data

Results flagged for a closer look

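The Mir142b row had 3442 reads in replicate 2 and 2176 in replicate 1 on the strand opposite to the gene, a column that gives no level in the report, against a limit of 3 reads for a count of 0. They made up 2.11% and 1.87% of all opposite-strand reads, at rank 8 of all rows in both libraries. The reads lie on the strand of Mir142, and the tables do not tell which mature strand they come from. No control samples exist in the series.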

How the results depend on the processing

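The order of the members and the 3 steps beyond the replicate spread held with a pseudocount of 0.1, with a pooled SD from genes at 10 CPM or more and with either library left out. The summed level, 3417 CPM, ranged from 2918 to 3916 CPM when a library was left out, and was 1602 with all reads of the table as total, a larger denominator by construction. The count of genes differing by reads was 153 and ran from 145 to 193 under other scalings and filters; it was 3 with edgeR's exact test at a BCV of 0.2. With library totals 78.8% of the called genes were higher in replicate 2, against 47.1% with TMM. The count past 1.5-fold was 102, and 54 among genes at 1 CPM or more in both libraries, where fewer genes were tested. TMM factors from all gene rows, an alternative kept after the data were seen, gave 158 calls. Mir342 and Mir150 passed the binomial test under every scaling and filter, and not at a BCV of 0.2. Both tests between libraries need each of them, so none could be left out there. No paired analysis was possible because the series holds 1 group. Depth limits Mir150, Mir181b-1, Mir486, Mir147, Mir511, Mir146b and the neuronal genes, which have 177 reads or fewer in each library. With no filter Mir181b-1 did not pass the exact binomial test (adjusted p = 0.0553).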
